A study of Oryza sativa Japonica Group with 4 samples.

Results

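The DREB1/CBF cold-response regulators of rice (Oryza sativa Japonica Group) were followed in developing panicles. The set held DREB1B (LOC4347618), DREB1G (LOC4330306), CBF3 (LOC4347620, also named DREB1A), DREB1E (LOC4336721) and CBF1 (LOC4339974, also named DREB1C). A gene was a member where 1 of these names was its symbol or synonym, and every probe set paired with that gene alone was taken. This gave 5 of 17905 genes and 7 of 22436 probe sets paired with exactly 1 gene. The set had been selected on its own signals on these arrays, so the values below describe it and none was tested.

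DREB1 proteins, called CBF in Arabidopsis, are transcription factors with an AP2 DNA-binding domain. They bind the C-repeat or dehydration-responsive element of promoters and switch on genes that protect cells against cold, drought and salt. Their own transcripts are known for a fast, short-lived increase on chilling. In rice, DREB1A and DREB1B are induced by cold, and overexpression of either raises stress tolerance.

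Affymetrix rice arrays were hybridised with panicle RNA of 4 groups, 1 array each. At meiosis, early to late, the pola mutant was set against its wild type. At ripening, 10 to 15 days past pollination, a POLA RNAi line in the T2 generation was set against its wild type. Each sample pooled 20 panicles taken from 10 greenhouse plants in natural daylight, and the labels name no cold or other stress treatment. One free-text label of the RNAi sample calls it wild, but the other labels of that sample name RNAi, and those were used. The sources used here do not give the lesion of the mutant, the promoter of the RNAi construct or the hour of harvest, and the signal of the targeted gene was not analysed here. No difference below has a replicate check, and precision is limited by there being 1 array per group.

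Each value is a MAS5 signal on a linear scale, with a trimmed mean of 500.1 on each array. The arrays differed in their dim signals and in some signs of RNA integrity. The median signal was 51.8 on the pola array against 124 on its wild-type array, and 65.7 on the RNAi array against 163 on its wild-type array, while the 75th percentiles lay between 487 and 521. Dim probe sets thus read lower on the pola and RNAi arrays. Among them were 64 reporter sequences not from rice, with a median of 5.31 in pola against 34.7 in wild type, and of 7.76 in RNAi panicles against 42.8 in wild type. The 3′ to 5′ signal ratio of a control transcript is read as a sign of RNA integrity. For GAPDH it was 4.22 in pola against 2.04 in wild type, and 3.32 in RNAi panicles against 2.01 in wild type. The other 3 controls were not higher in RNAi panicles, where actin had 6.10 against 6.22 in wild type, cyclophilin 1.27 against 1.90 and ubiquitin 0.780 against 0.789. At meiosis actin had 8.06 in pola against 5.89 in wild type, cyclophilin 1.86 against 1.42 and ubiquitin 0.766 against 0.796. The part of these features in the results was not tested.

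A log2 ratio below is that of signals after adding 23.4, the 25th percentile of all signals. For a stricter reading, signals below 163, the largest of the array medians, were set to that common floor. A gene was kept in a comparison where its higher signal reached the median of that array, and 2-fold means a log2 ratio of at least 1 in size.

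Most marker genes of the tissues read as the stages were labelled. All 6 tapetum and pollen wall genes lay above the floor on both meiotic arrays, with a summed signal of 91008 in pola and 63245 in wild type. At ripening 5 of them lay under the floor in RNAi panicles and 4 in wild-type panicles. GAMYB of this list still read 1035 in RNAi panicles and 1640 in wild-type panicles. Of 5 meiosis genes, 4 were 2-fold lower at ripening than at meiosis in wild type, and PAIR2 had a ratio of -0.15. PAIR1 lay under the floor on both meiotic arrays, with 77.8 in pola and 145 in wild type. All 8 endosperm genes lay above the floor on both ripening arrays, with a summed signal of 303992 in RNAi panicles and 230796 in wild-type panicles. The 3 embryo genes did so too, with 78951 in RNAi panicles and 56092 in wild-type panicles. At meiosis 2 of the embryo genes lay under the floor in pola but only 1 in wild type, with summed signals of 924 and 492. The 3 leaf and green tissue genes lay above the floor on all 4 arrays. Of these, 1 was 2-fold higher in pola and none lower, beside 2.26% of all kept genes higher and 4.34% lower. It was RBCS, with 5555 in pola and 1880 in wild type. None of the 3 passed 2-fold in the RNAi comparison.

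The 5 regulators shared 1 feature, a signal that was highest in wild-type panicles at ripening. The same held for 23.2% of all genes at or above the median of at least 1 array. DREB1B, DREB1G, CBF3 and DREB1E were at least 2-fold above each of the other 3 arrays there, a pattern of 2.11% of those genes. In pooled panicle RNA, fewer cells that express a gene and less RNA per cell cannot be told apart.

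**Figure D1:**
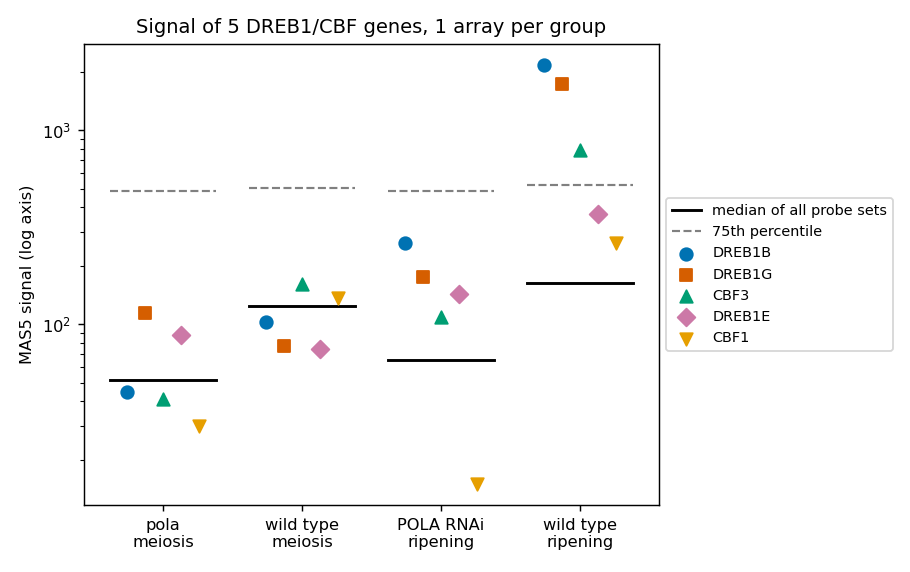
MAS5 signal (log axis) of the leading probe set of each DREB1/CBF gene on the 4 arrays, with 1 point per gene and array. Solid lines mark the median and dashed lines the 75th percentile of all probe sets on that array. Only on the wild-type ripening array do all 5 genes lie above the array median, and DREB1B, DREB1G and CBF3 also pass the 75th percentile there.

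DREB1B, a cold-induced activator, had a signal of 264 in RNAi panicles and 2171 in wild-type panicles at ripening, and of 44.7 in pola and 103 in wild type at meiosis. The wild-type ripening array stands alone, at a signal that 92.7% of its probe sets did not exceed. The RNAi array came next, at 67.7% of its probe sets, and both meiotic arrays were just under their medians, at 47.9% in pola and 45.7% in wild type.

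DREB1G, a close relative encoded on chromosome 2, had a signal of 175 in RNAi panicles and 1722 in wild-type panicles at ripening, and of 115 in pola and 77.6 in wild type at meiosis. The order at ripening was that of DREB1B and the order at meiosis the opposite. Of the 4 arrays, again only wild type at ripening was bright, with 90.8% of its probe sets at or below the gene.

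CBF3 corresponds to DREB1A, whose overexpression turns on cold-protective genes. Its signal was 109 in RNAi panicles and 788 in wild-type panicles at ripening, and 41.1 in pola and 160.5 in wild type at meiosis. Both wild-type arrays thus exceeded their partner, and wild type at meiosis took the place after wild type at ripening.

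DREB1E, of the same subgroup, had a signal of 142 in RNAi panicles and 371 in wild-type panicles at ripening, and of 87.5 in pola and 74.3 in wild type at meiosis. The meiotic values lay close together and below the common floor, and the gap at ripening was smaller than for the other members.

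CBF1, also listed as DREB1C, was the dimmest in wild type at ripening and the only member with several probe sets. The leading probe set read 14.9 in RNAi panicles and 264 in wild-type panicles at ripening, and 29.9 in pola and 137 in wild type at meiosis. The next read 4.84 in RNAi panicles and 186 in wild-type panicles, and 13.6 in pola and 136 in wild type. The last read 4.46 in RNAi panicles and 172 in wild-type panicles, and 0.982 in pola and 14.4 in wild type. All 3 were designed on the same sequence record, so they are not independent. In each, wild type was brighter than its partner at both stages, but they differed on wild type at meiosis, where the last was dim. The leading probe set is named as antisense and the other 2 as sense to the design sequence, and which strand of the transcript each reads was not tested.

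At ripening, RNAi panicles were set against wild-type panicles to see what differs in panicles of the RNAi line at this stage. All 5 regulators were at least 2-fold lower in RNAi panicles, where 7.36% of 15912 kept genes were lower and 3.63% higher. Their median log2 ratio was -2.90, against 0.09 over all kept genes. The genes were selected on this contrast, so nothing is read from the count. With the common floor 4 of the 5 were 2-fold lower, beside 3.63% of kept genes lower and 1.9% higher.

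The ratios of 4 members were close and that of DREB1E was smaller. DREB1G had a log2 ratio of -3.14, DREB1B -2.93, CBF1 -2.90 and CBF3 -2.62, and DREB1E had -1.25. Counted from the lowest ratio of the kept genes, DREB1G stood at place 27, DREB1B at 60, CBF1 at 66, CBF3 at 117 and DREB1E at 816. DREB1B and DREB1G, measured above the floor on both arrays, were 8.24-fold and 9.87-fold lower in RNAi panicles with the floor applied. For the others the RNAi signal was under the floor and was raised to it. With the floor CBF3 was 4.82-fold lower and DREB1E 2.27-fold lower, values that hold for the deposited scaling only. For CBF1 the value was 1.61-fold, short of 2-fold, since its wild-type signal was not far above the floor.

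Other settings were applied because the RNAi array reads dim probe sets lower than its partner. Over the main setting and 11 alternatives, DREB1B lay between -3.04 and -2.63, DREB1G between -3.30 and -2.72, and CBF3 between -2.79 and -2.07. Changes of the filter, the threshold or the probe sets leave these ratios as they are. Only the scaling, the pseudocount and the floor could move them. These 3 genes were 2-fold lower in every setting. DREB1E lay between -1.35 and -0.76 and fell short of 2-fold after quantile normalization, after loess centring and with the median signal as pseudocount. CBF1 lay between -3.70 and -0.69. Of all 2-fold differences between these arrays 67.0% were lower in RNAi panicles, a share of 29.7% with quantile normalization and 29.6% with loess centring.

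**Figure D2:**
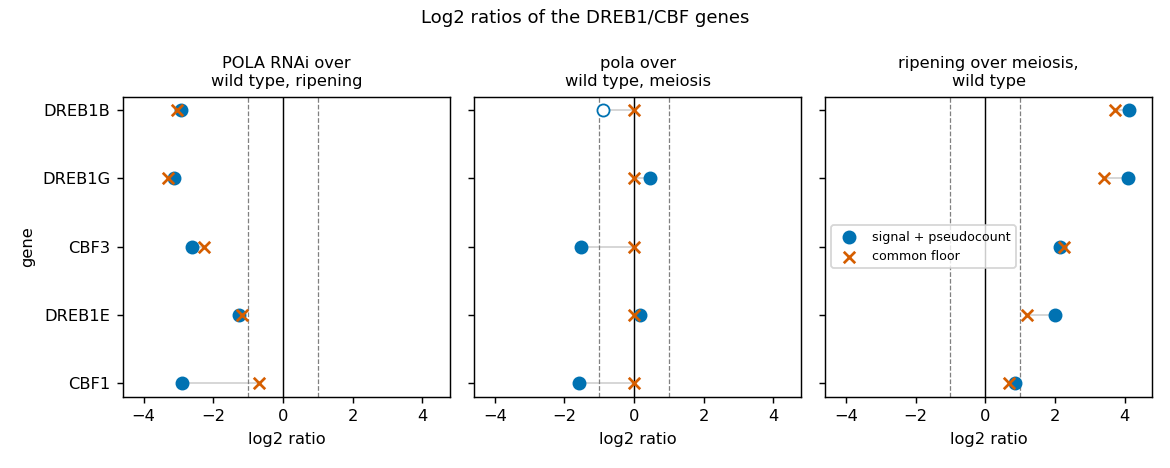
Log2 ratio of each DREB1/CBF gene in the 3 comparisons. Filled circles use the signal plus the pseudocount, the open circle is a gene not kept in that comparison, crosses use the common floor, and dashed lines mark 2-fold. At ripening all 5 circles lie left of -1, at meiosis every cross lies at 0, and in wild type 4 genes lie right of 1 with either method.

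At meiosis, pola panicles were set against wild-type panicles to see what differs with the gene mutated. All 5 leading probe sets were under the common floor on both arrays, so with the floor 0 of 5 differed, beside 1.03% of kept genes lower and 1.16% higher. Without it, CBF1 and CBF3 were 2-fold lower in pola among the 4 members kept, with log2 ratios of -1.59 and -1.51, where 4.34% of 15779 kept genes were lower and 2.26% higher. DREB1G had a ratio of 0.45 and DREB1E of 0.18. DREB1B, which was not kept, had -0.89.

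These meiotic ratios moved with the scaling. With quantile normalization or loess centring neither CBF1 nor CBF3 passed 2-fold. DREB1G and DREB1E were then 2-fold higher in pola, with 1.18 and 1.01 under quantile normalization and 1.33 and 1.17 under loess centring. Of all 2-fold differences 65.7% were lower in pola in the main setting, 23.0% under quantile normalization and 22.9% under loess centring. At this brightness a difference between pola and wild type was not detectable for the 5 regulators.

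Wild-type panicles at ripening were also set against wild-type panicles at meiosis. This uses the same wild-type ripening array as the RNAi comparison, so a high reading there moves both. DREB1B, DREB1G, CBF3 and DREB1E were at least 2-fold higher at ripening, where 15.4% of 16187 kept genes were higher and 16.4% lower. DREB1B had a log2 ratio of 4.12, DREB1G of 4.11, CBF3 of 2.14 and DREB1E of 2.01. Their meiotic signals were under the floor. With the floor applied the differences were 13.3-fold for DREB1B, 10.5-fold for DREB1G, 4.82-fold for CBF3 and 2.27-fold for DREB1E. The lowest log2 ratios over all settings were 3.47 for DREB1B, 3.34 for DREB1G, 1.76 for CBF3 and 1.18 for DREB1E. The same 4 genes passed 2-fold with the floor, beside 13.1% of kept genes higher and 14.5% lower. CBF1 had a ratio of 0.84, and passed 2-fold with the mean over its 3 probe sets.

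Of the named relatives, 3 DREB2 genes were measured, from the sister group that acts mainly in drought and heat. None of the 3 passed 2-fold in the RNAi comparison, beside 7.36% of all kept genes lower and 3.63% higher, and their median log2 ratio was 0.00. With 3 genes, nothing is read from this count. DREB2A read 151 in RNAi panicles and 203 in wild-type panicles. DREB2B read 315.5 in RNAi panicles and 315.2 in wild-type panicles. DREB2D read 148 in RNAi panicles and 107 in wild-type panicles. DREB2B lay above the common floor on all 4 arrays, and DREB2A and DREB2D were dimmer. DREB2D was 2-fold higher in RNAi panicles with quantile normalization, at 1.27, or loess centring, at 1.36. DREB1F, DREB1H, DREB1I and DREB1J were not analysed here.

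The list of upstream regulators held 27 symbols, and many of them were not measured. ICE1, ICE2, HOS1 and PIL14 were among those that matched no gene by symbol or synonym. MPK3 matched several genes, and COLD1 had no probe set paired with it alone. Of 12 measured upstream regulators, 1 was 2-fold lower in RNAi panicles and none higher, with a median of -0.06, beside 7.36% of all kept genes lower and 3.63% higher. The lower gene was MYB2, a MYB factor of the cold, salt and dehydration response, and whether it acts on DREB1 genes was not tested. It read 365 in RNAi panicles and 1772 in wild-type panicles at ripening, and 94.4 in pola and 92.7 in wild type at meiosis. Its log2 ratio at ripening was -2.21, and it was 2-fold lower under each of the 11 alternatives. The brightest array was wild type at ripening, as for the 5 regulators.

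The other upstream genes differed less between the ripening arrays. MYBS3, a repressor of DREB1 genes in prolonged cold, read 2305 in RNAi panicles and 2035 in wild-type panicles. The stress-activated kinase gene SAPK9 read 2953 in RNAi panicles and 2028 in wild-type panicles, and SAPK8 read 1774 in RNAi panicles and 1910.4 in wild-type panicles. PCF5, a TCP factor, had a ratio of -3.44 for ripening over meiosis in wild type. It was dim at ripening, with a ratio of 0.31 for RNAi panicles over wild type that passed 2-fold at 1.22 with quantile normalization and 1.36 with loess centring. In the pola comparison none of the 12 passed 2-fold.

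Clock genes were listed because the circadian clock gates the cold induction of CBF genes in Arabidopsis. By its leading probe set, none of 7 passed 2-fold in the RNAi, the pola or the stage comparison, with medians of 0.20, 0.04 and 0.08. Of all kept genes, 7.36% were lower and 3.63% higher in RNAi panicles, and 4.34% lower and 2.26% higher in pola. By stage 16.4% were lower and 15.4% higher. PRR37 and PCL1 were added after their values were seen. The other probe set of PRR37 read 470 in pola and 178 in wild type, a ratio of 1.30, against 0.19 for the leading one. PCL1 had 0.84 in pola. GI, which peaks in the evening, read 3062 in RNAi panicles and 3026 in wild-type panicles. PRR95 read 2304 in RNAi panicles and 2007 in wild-type panicles, and PRR73 read 2739 in RNAi panicles and 2415 in wild-type panicles, both pseudo-response regulators of the clock. LHY, a morning gene added after its values were seen, read 623 in RNAi panicles and 424 in wild-type panicles.

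**Figure D3:**
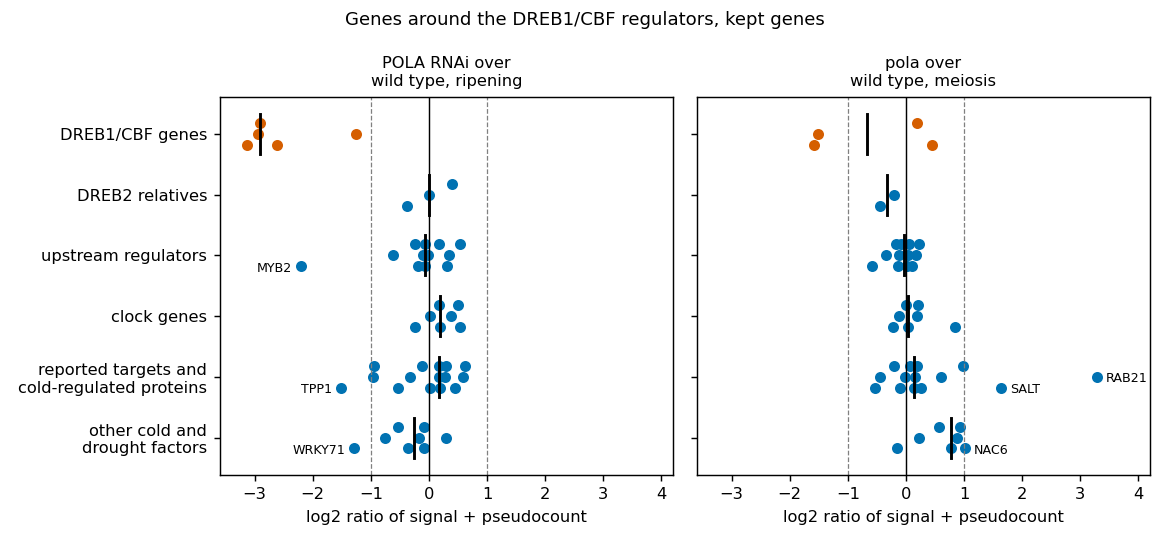
Log2 ratios of kept genes in 6 sets for the RNAi line over wild type at ripening and for pola over wild type at meiosis. Each point is a gene, the bar is the median of the set, dashed lines mark 2-fold, and genes past 2-fold outside the DREB1/CBF set are named. At ripening all 5 DREB1/CBF genes and MYB2, TPP1 and WRKY71 lie left of -1.

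Of 15 reported DREB1 targets and cold-regulated proteins, 1 was 2-fold lower in RNAi panicles and none higher, with a median of 0.17, beside 7.36% of all kept genes lower and 3.63% higher. The count lower was 2 with the common floor, a pseudocount of 5.85, quantile normalization or loess centring. These counts use the leading probe set of each gene. LTI6B, added after its values were seen, had 0.02 by its leading probe set. Its other probe set read 241 in RNAi panicles and 667 in wild-type panicles, a ratio of -1.39, and the mean over both was -0.68. TPP1, a trehalose-phosphate phosphatase of cold and salt tolerance, read 773 in RNAi panicles and 2259 in wild-type panicles, a ratio of -1.52. The lectin gene SALT, induced by salt and drought, read 7786 in RNAi panicles and 15226 in wild-type panicles. Its ratio of -0.97 fell short of 2-fold, but it passed at -1.11 with quantile normalization and at -1.25 with loess centring.

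The seed maturation genes of this list did not all differ in 1 direction. The dehydrin gene RAB21 read 35301 in RNAi panicles and 22853 in wild-type panicles. The late embryogenesis gene LEA19 read 13249 in RNAi panicles and 11609 in wild-type panicles. RAB25 read 14038 in RNAi panicles and 10314.5 in wild-type panicles, and the dehydrin gene RAB16B read 6031 in RNAi panicles and 4910 in wild-type panicles. These 4 read higher in RNAi panicles. The dehydrin genes RAB16C and RAB16D, added after their values were seen, read lower. RAB16C had 901 in RNAi panicles and 1129 in wild-type panicles, and RAB16D had 193 in RNAi panicles and 289 in wild-type panicles.

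The genes for protective metabolites were likewise mixed. P5CS1, of proline synthesis, read 5718 in RNAi panicles and 5081 in wild-type panicles. BADH1, of glycine betaine synthesis, read 5736 in RNAi panicles and 3800 in wild-type panicles, and ADC1, of polyamine synthesis, read 4725 in RNAi panicles and 4169 in wild-type panicles. P5CS2, a further proline synthesis gene added after its values were seen, read 171 in RNAi panicles and 353 in wild-type panicles. Its ratio of -0.95 fell short of 2-fold, but it passed at -1.04 with the common floor and -1.02 with a pseudocount of 5.85.

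In the pola comparison 2 of the 14 kept genes of this list were 2-fold higher and none lower, with a median of 0.15, beside 2.26% of all kept genes higher and 4.34% lower. SALT read 9125 in pola and 2921 in wild type, and its other probe set read 7013 in pola and 2189 in wild type. RAB21 read 668 in pola and 47.5 in wild type, while its other probe set read 357 in pola and 262 in wild type and did not pass 2-fold. In wild type, 8 of 15 were higher at ripening than at meiosis and 1 was lower, with a median of 1.22, beside 15.4% of all kept genes higher and 16.4% lower. RAB21 had a ratio of 8.33, LEA19 of 5.58, RAB25 of 5.38 and RAB16B of 5.05. The lower gene was LTI6A, a small membrane protein of the cold response, with -2.61.

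Of 8 other cold and drought factors, WRKY71 was 2-fold lower in RNAi panicles and none was higher, with a median of -0.27, beside 7.36% of all kept genes lower and 3.63% higher. WRKY71 read 1170 in RNAi panicles and 2895 in wild-type panicles, a ratio of -1.29, and its other probe set had -1.65. NAC6, a stress factor of the NAC family, read 3129 in RNAi panicles and 4032 in wild-type panicles, a ratio of -0.36. Its other probe sets were dim, with 6.97 in RNAi panicles and 194 in wild-type panicles for 1 and 70.8 in RNAi panicles and 146 in wild-type panicles for the other. The mean over its 3 probe sets was -1.35, which brings the list's count lower to 2. NAC5, of the same family, read 1325 in RNAi panicles and 1918 in wild-type panicles. WRKY76 read 399 in RNAi panicles and 425 in wild-type panicles.

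The bZIP factors in this list also stayed within 2-fold in the RNAi comparison. TRAB1 read 2653 in RNAi panicles and 2153 in wild-type panicles, BZIP23 read 1465 in RNAi panicles and 1649 in wild-type panicles, and BZIP52 read 881 in RNAi panicles and 937 in wild-type panicles. In the pola comparison 1 of the 7 kept genes was 2-fold higher and none lower, beside 2.26% of all kept genes higher and 4.34% lower. Their median was 0.77, against 0.05 over all kept genes. The higher gene was NAC6, at 737 in pola against 352 in wild type, whereas its other 2 probe sets read lower in pola. MYB4, added after its values were seen, had 0.93, BZIP23 had 0.87 and BZIP52 had 0.77, while NAC5 had -0.15. The other probe set of MYB4 had 2.32, at 229 in pola and 27.2 in wild type. In wild type, 5 of the 8 were higher at ripening than at meiosis and none lower, with a median of 1.67, beside 15.4% of all kept genes higher and 16.4% lower.

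DREB1B and CBF3 are near neighbours on chromosome 9, with DREB1H as the only protein-coding gene between them in the reference gene order. DREB1G, DREB1E and CBF1 lie on chromosomes 2, 4 and 6. Around the 5 members, 17 other genes stood within 2 places, and 10 of them were measured. None of the 10 passed 2-fold in the RNAi or the pola comparison, and 3 were lower at ripening than at meiosis in wild type. Of all kept genes, 7.36% were lower and 3.63% higher in RNAi panicles, and 4.34% lower and 2.26% higher in pola. In the stage comparison 16.4% were lower and 15.4% higher. With 10 genes, nothing is read from these counts. GEN1, a nuclease gene next to DREB1B, read 376 in RNAi panicles and 438 in wild-type panicles at ripening. Beyond CBF3, LOC4347621 read 1014.5 in RNAi panicles and 618 in wild-type panicles. LOC4330307, beside DREB1G, had the lowest RNAi ratio of the 10, -0.71, with 209 in RNAi panicles and 356 in wild-type panicles.

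The genes with the most similar profile over the 4 arrays were then ranked. Likeness was the root mean square difference between a gene's centred log2 signals and the mean profile of the 5 regulators, over 4 arrays and 17024 genes, for which the median was 1.32. The members themselves lay between 0.303 for CBF3 and 0.832 for CBF1. The 10 nearest of 2348 genes with a descriptive name lay between 0.113 and 0.440, and each was brightest in wild type at ripening.

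Several of the 10 encode enzymes. The glucosidase gene BGLU20 was nearest, with 12.7 in RNAi panicles and 237 in wild-type panicles at ripening. AMY3D, an alpha-amylase gene induced by sugar starvation, read 48.2 in RNAi panicles and 485 in wild-type panicles. OPR12, of the oxophytodienoate reductase family, read 137 in RNAi panicles and 509 in wild-type panicles. In each, the RNAi signal was below the common floor. The gene LOC4351188, listed as chitinase, was below it as well, at 49.998 in RNAi panicles and 633 in wild-type panicles. The isocitrate lyase gene ICL, of the glyoxylate cycle, read 373 in RNAi panicles and 1227 in wild-type panicles. ABA8OX1, which breaks down abscisic acid, read 754 in RNAi panicles and 3087 in wild-type panicles.

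The remaining 4 were of mixed kinds. The germin-like gene GLP2 read 49.8 in RNAi panicles and 567 in wild-type panicles, and the copper transporter gene COPT2 read 107 in RNAi panicles and 485 in wild-type panicles. The haemoglobin gene NSHB1 read 189 in RNAi panicles and 602 in wild-type panicles. CML31, a calmodulin-like calcium sensor, read 568 in RNAi panicles and 2317 in wild-type panicles. Of the 10, ICL, NSHB1, ABA8OX1 and CML31 were above the floor on both ripening arrays. The likeness rests on 4 arrays, of which 1 is the bright one, and says nothing of shared function or control.

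**Figure D4:**
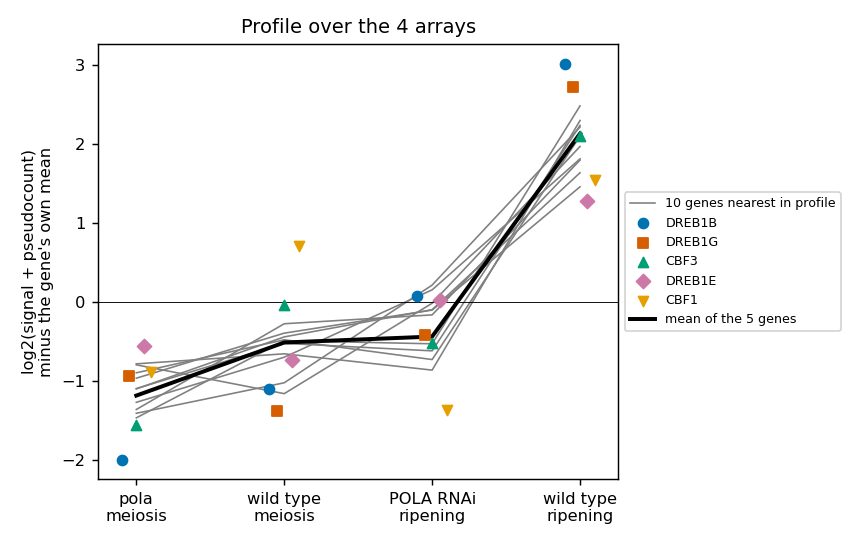
Log2 signal (plus pseudocount) of each gene minus its own mean over the 4 arrays. Coloured symbols are the 5 DREB1/CBF genes, the black line is their mean, and grey lines are the 10 named genes nearest to it. The mean lies at 2.13 in wild type at ripening and between -1.18 and -0.44 on the other arrays.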

How the data were processed

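The authors deposited 1 intensity per probe set and array, a linear MAS5 signal according to the submitters' processing notes. The sources used here do not give the MAS5 version, the scanner or detection calls. Per the labels, total RNA came from a Trizol extraction and biotinylated cRNA from one-cycle labelling. After removal of 187 control probe sets 57194 remained, and 22436 paired with exactly 1 gene through the platform annotation. Names, chromosomes and gene order came from a RefSeq rice gene table (ASM3414082v1). The brightest probe set on average led its gene.

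Comparisons were log2 ratios of single arrays, with no test. Members and lists were chosen with earlier results of these data known. Named genes were all members, list genes past 2-fold (up to 4 per direction) with the 3 brightest others, the 10 nearest profiles and neighbours within 2 places. Symbols matching several genes were left out. The gene table has no descriptions, so lists planned by description became genes with an ERF number. The only gene this added to the DREB2 genes was ERF78, which was kept in no comparison. Planned descriptions of promoters and proteins were not made here. The 11 alternatives changed the scaling, the pseudocount, the floor, the choice of probe sets, the filter or the threshold. The steps were tested on simulated data in which dim signals did not differ between arrays beyond noise and only bright probe sets were changed. Calls at dim signals could not be checked this way. Software was matplotlib 3.10.9, statsmodels 0.14.6, scipy 1.17.1, pandas 2.3.3 and numpy 2.4.6 under Python 3.11.15.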

Additional observations from a re-analysis of the deposited data

Results flagged for a closer look

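DREB1G and DREB1E were lower in the RNAi line than in wild type at ripening and higher in pola than in wild type at meiosis. DREB1G had log2 ratios of -3.14 at ripening and 0.45 at meiosis, and DREB1E had -1.25 and 0.18. The difference between the stages was not tested, since each group has 1 array, and the genotypes also differ between the stages. Both meiotic signals of both genes lay under the common floor, with which their meiotic ratios were 0.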

How the results depend on the processing

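No paired analysis was possible because each group has 1 array and the labels give no replicate numbers that pair them. The limits are the same for all values: there is no replicate error, no detection call, and most member signals outside wild type at ripening lay under the floor. In the RNAi comparison the count of 5 lower regulators was 5 or 4 under 10 of the 11 alternatives and 3 with the 75th percentile filter (3 of the 5 kept). In the pola comparison the count of 2 lower regulators became 0 after quantile normalization, after loess centring, with the median signal as pseudocount, with the common floor, at the 4-fold threshold, and with the 75th percentile filter (0 of the 5 kept). In the stage comparison 3 to 5 regulators were higher under every alternative, 5 with the mean over probe sets. All 5 were brightest in wild type at ripening also after quantile normalization, with the floor and with the mean over probe sets. Over 60 named genes, 1907 of 1980 values kept their side of 2-fold, 48 no longer passed it and 24 newly passed it. Part of this was fixed in advance, so nothing is read from these counts. A change of filter or threshold leaves a ratio as it is, and so does the choice of probe sets for a gene with 1 probe set. The sign differed from the main setting in 61 of the 1980 values, and 1 of these was a 2-fold difference in the main setting: NAC6 in pola, at -0.78 with the mean over probe sets. The count of all 2-fold lower genes in the RNAi line was 1171, and it was 555 after quantile normalization, 495 after loess centring, 578 with the floor, 674 with the median signal as pseudocount, 1779 without a filter, 237 with the 75th percentile filter and 263 at 4-fold. In pola it was 685, and 224, 239, 162, 272, 1229, 71 and 151 in the same order.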
